A study of Homo sapiens with 8 samples.

Results

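The endoplasmic reticulum chaperones and unfolded protein sensors were followed in H1299 cells as 10 genes, namely HSPA5, HSP90B1, PDIA4, PDIA6, DNAJB9, SDF2L1, HERPUD1, HYOU1, XBP1 and ATF6. Every probe set whose platform annotation gave exactly 1 gene symbol, equal to one of these names, was taken, which gave 40 of the 49293 probe sets other than array controls. H1299 is an established line of human non-small cell lung carcinoma, and its total RNA was measured on 8 one-colour Affymetrix arrays. The groups were cells transfected with shRNA against USF1 (USF1 knockdown, 3 arrays) and the control for USF1 knockdown (3 arrays), and cells transfected with shRNA against UGT1A3 (UGT1A3 knockdown, 1 array) and the control for UGT1A3 knockdown (1 array). The labels name 1 cell line, give neither a time after transfection nor the sequence of the control, and do not say whether replicates were cultured separately, so the p-values reflect the variation among these arrays alone, part of which may be technical.

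Proteins that enter the endoplasmic reticulum (ER) are folded there by chaperones, joined by disulfide bonds through protein disulfide isomerases, and sent out for degradation when folding fails. When unfolded protein builds up, the sensors IRE1, PERK and ATF6 start the unfolded protein response: IRE1 splices the XBP1 mRNA to yield an active transcription factor, ATF6 is cut in the Golgi to release another, and PERK slows translation and favours ATF4. XBP1 and ATF6 act on chaperone and degradation genes through the ER stress response element (ERSE) and its shorter form ERSE-II. USF1 is a transcription factor that binds the E-box, and UGT1A3 is a glucuronosyltransferase that is itself anchored in the ER membrane. The array probe sets for XBP1 and ATF6 report total mRNA, not XBP1 splicing or ATF6 cleavage, so the values below are transcript levels and not sensor activity.

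The promoters are shown because the ERSE, the ERSE-II and the E-box bound by USF1 occur in them. RefSeq windows of assembly GRCh38.p14, running from 250 bases before to 50 bases after each gene start, were found for all 10 genes, with a pair of starts for PDIA4, PDIA6 and XBP1. Both strands were searched for the E-box CACGTG, for the ERSE, read as CCAAT and CCACG with 9 free bases between them, for the ERSE-II, read as ATTGG and CCACG with 1 free base between them, and for the unfolded protein response element (UPRE) TGACGTGG, which XBP1 binds. These motifs have letters in common, and among the matches in the 10 genes 1 pair shared bases, an ERSE-II and the UPRE of HYOU1, which overlap by 5 bases. In the sequences, read 5′ to 3′ on the gene's strand, capitals mark the fixed bases of the E-box, ERSE and ERSE-II in either orientation.
HSPA5: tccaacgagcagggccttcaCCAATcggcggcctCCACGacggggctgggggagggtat
HSP90B1: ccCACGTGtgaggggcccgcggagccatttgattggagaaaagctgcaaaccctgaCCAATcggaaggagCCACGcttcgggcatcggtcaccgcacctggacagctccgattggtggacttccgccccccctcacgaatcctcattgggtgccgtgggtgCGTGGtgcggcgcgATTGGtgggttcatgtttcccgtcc
PDIA6: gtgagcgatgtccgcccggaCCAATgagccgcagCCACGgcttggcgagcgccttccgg
DNAJB9: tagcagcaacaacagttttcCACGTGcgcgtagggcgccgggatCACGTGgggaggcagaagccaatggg
SDF2L1: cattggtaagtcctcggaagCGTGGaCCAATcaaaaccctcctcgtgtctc
HERPUD1: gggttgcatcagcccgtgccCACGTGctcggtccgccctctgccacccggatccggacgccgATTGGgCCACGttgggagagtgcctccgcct
HYOU1: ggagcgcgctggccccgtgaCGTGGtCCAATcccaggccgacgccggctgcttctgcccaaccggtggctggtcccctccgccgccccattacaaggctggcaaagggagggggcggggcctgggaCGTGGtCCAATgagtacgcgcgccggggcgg
XBP1: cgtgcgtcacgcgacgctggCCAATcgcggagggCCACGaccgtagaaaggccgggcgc
The stretches lie upstream of the start at chr9:125241371-125241429 (minus strand, HSPA5), chr12:103930160-103930359 (plus, HSP90B1), chr2:10812833-10812891 (minus, PDIA6), chr7:108569781-108569850 (plus, DNAJB9), chr22:21642094-21642144 (plus, SDF2L1), chr16:56931963-56932055 (plus, HERPUD1), chr11:119057254-119057410 (minus, HYOU1) and chr22:28800583-28800641 (minus, XBP1).

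An ERSE or ERSE-II was present in 7 of the 10 genes, and in 0.132% of 34943 RefSeq windows of the same length. Here and below the 10 genes are counted by gene, some with a pair of windows, and the background by window. Counted from the start to the first base of the match, the ERSE began at -66 in HSPA5, at -52 from one start of XBP1 and at -86 from one start of PDIA6, and HSP90B1 had it at both -194 and -89. The ERSE-II began at -117 in HERPUD1, at -188 in SDF2L1 and at -185 and -79 in HYOU1. In all windows the ERSE occurred in 0.0773% and the ERSE-II in 0.0544%. The UPRE occurred in 1 of the 10 genes, at -188 in HYOU1, and in 0.73% of all windows. The E-box CACGTG occurred in 3 of the 10 genes, at -73 and -49 in DNAJB9, at -159 in HERPUD1 and at -248 in HSP90B1, and in 7.23% of all windows. HERPUD1 and HSP90B1 therefore carried both kinds of motif, DNAJB9 had E-boxes without an ERSE, and these letters were not in the windows of PDIA4 and ATF6. A match describes the letters only, and no binding was measured here.

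**Figure D1:**
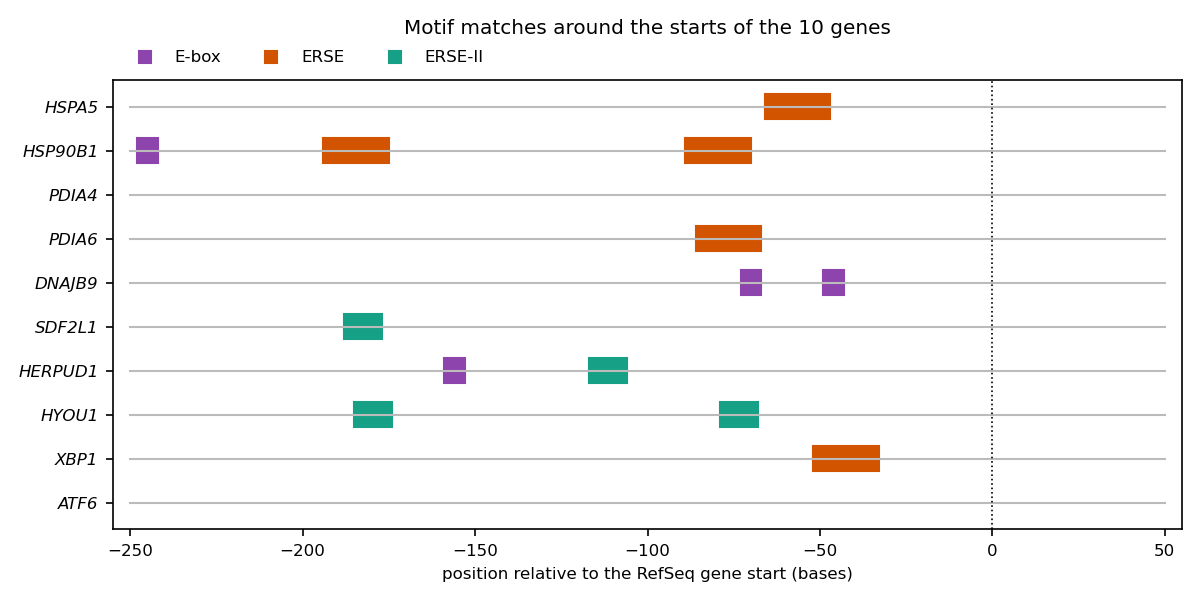
Motif matches from 250 bases before to 50 bases after the RefSeq gene start, with position in bases on the horizontal axis and 1 row per gene, where boxes mark the E-box (purple), ERSE (orange) and ERSE-II (green). Matches at the different starts of XBP1 and PDIA6 are drawn relative to their own start, and 8 of the 10 genes have at least 1 box, all upstream of the start.

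The targeted gene was checked first. The single USF1 probe set read 6.06, 5.88 and 6.13 on the log2 scale in USF1 knockdown and 6.31, 6.55 and 6.42 in USF1 controls. The difference was -0.40 (SE 0.08, n = 3 against 3, limma adjusted p = 0.00889), so 75.6% of the control signal remained. No probe set measured UGT1A3 alone. The 9 probe sets shared by UGT1A genes were all too dim to be tested, and in the UGT1A3 pair they differed by -0.45 to 0.06. Array medians were 6.53 to 6.55 in the USF1 set and 5.59 to 5.63 in the UGT1A3 set, so levels were compared only within a set. The epithelial keratins KRT8 and KRT18 and the mesenchymal filament VIM were all above the dim limit, with KRT18 at 12.85 and VIM at 14.57 in USF1 knockdown, against 12.81 and 14.56 in USF1 controls. KRT8 rose, at 9.32 in USF1 knockdown and 9.07 in USF1 controls (0.25, SE 0.04, limma adjusted p = 0.00278), and its part in the results below was not tested. Bright enough to be tested were 1 of 4 fibroblast, 1 of 3 leukocyte, 2 of 3 endothelial and 2 of 4 alveolar markers with a probe set. These were PDGFRB, CD68, PECAM1, VWF, AGER and SFTPC, and none passed after USF1 knockdown. The leukocyte and lysosomal marker CD68 read 9.37 in USF1 knockdown and 9.46 in USF1 controls (limma adjusted p = 0.175). PTPRC, which defines leukocytes, read 3.30 in USF1 knockdown and 3.28 in USF1 controls, under the limit.

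After USF1 knockdown the 10 genes did not move as 1 block. The co-chaperone DNAJB9 rose on both tested probe sets, the transcription factor XBP1 fell on its only probe set and the degradation factor HERPUD1 fell on all 3 tested ones. The Hsp70 chaperone HSPA5 rose on 3 of 6 probe sets, the Hsp90 chaperone HSP90B1 on 2 of 7 and the sensor ATF6 on 1 of 3, and no tested probe set of the 10 genes differed by more than 1.22-fold. Of the 38 probe sets bright enough to be tested, 8 rose and 4 fell, and 26 did not pass a limma adjusted p of 0.05. Over all 29576 tested probe sets 37.3% passed, 19.8% upward and 17.5% downward, and 12 of 38 is below that share. This order depended on the fit, since the share was above the background with another prior, given below. When the limit was raised to the 60th percentile of means, 17 of 31 passed, 12 upward and 5 downward, on a background of 52.3%, 28.1% upward and 24.2% downward. Counted by gene, 2 of 10 rose and 2 fell with each gene fitted by its brightest probe set or by the mean of its probe sets. By brightest probe set 40.7% of all genes passed (22% upward, 18.7% downward), and by mean 44.2% did (23.2% upward, 21% downward). The genes that rose differed, since DNAJB9 passed by brightest probe set but not by mean. The median difference was 0.07 over the 38 probe sets and 0.01 over all tested ones. None of the 38 reached 0.32 log2 units in size, which 9.31% of all tested probe sets did. The 3 knockdown arrays lay all above the controls on 16 probe sets and all below on 6, on a background of 51.2% without overlap in either direction.

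**Figure D2:**
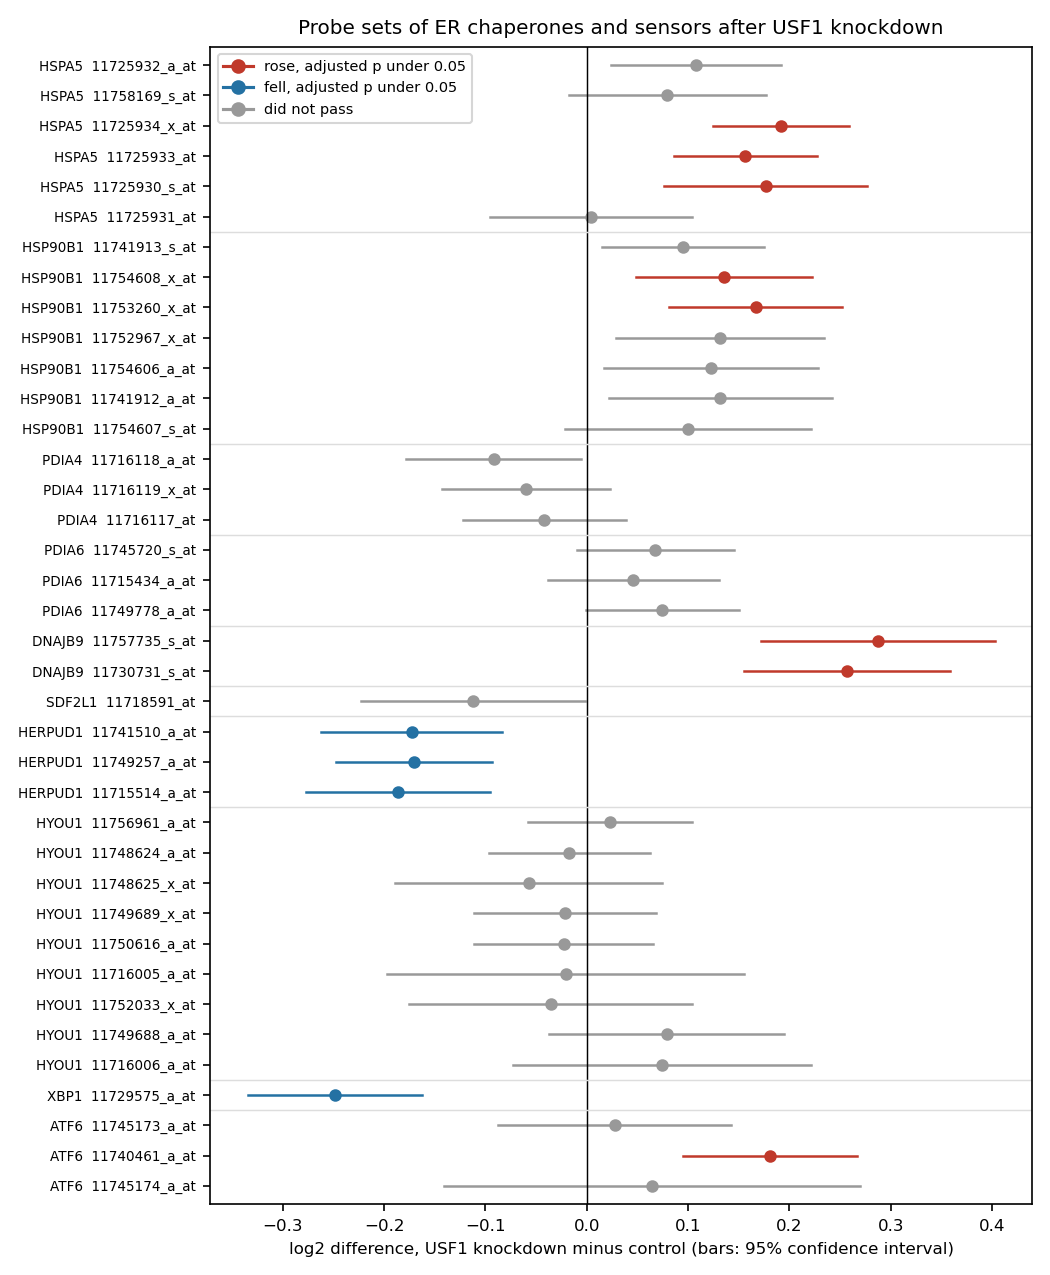
Log2 difference, USF1 knockdown minus control, for each of the 38 tested probe sets (points), with bars for the 95% confidence interval of limma, grouped by gene and ordered by level within a gene. The points of HSPA5 and HSP90B1 lie at or right of 0, those of DNAJB9 between 0.26 and 0.29, those of HERPUD1 and XBP1 between -0.25 and -0.17, and those of HYOU1 on both sides of 0.

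HSPA5 encodes BiP, the Hsp70 of the ER lumen, which binds nascent chains and also holds the sensors inactive. Its brightest probe set read 12.71, 12.80 and 12.74 in USF1 knockdown and 12.63, 12.62 and 12.66 in USF1 controls. All 3 knockdown arrays lay above the controls, but the difference of 0.11 (SE 0.04) just missed the threshold with a limma adjusted p of 0.0505. The probe sets that rose were led by 11725934_x_at, which read 12.38, 12.37 and 12.35 in USF1 knockdown, against 12.18, 12.18 and 12.17 in USF1 controls. On that probe set the level was 114% of control (0.19, SE 0.03, limma adjusted p = 0.00254), and the other pair that passed, 11725933_at and 11725930_s_at, gave 0.16 and 0.18. The call of 11725930_s_at did not hold without a dim limit (limma adjusted p = 0.0515), nor when USF1 control 1 or 2 or USF1 knockdown 1 was left out (limma adjusted p = 0.0567 to 0.058). The dimmest HSPA5 probe set, 11725931_at, averaged 7.73 in USF1 knockdown and 7.72 in USF1 controls and differed by 0.004 (95% confidence interval -0.10 to 0.10). HSPA5 thus stood at 100.3% to 114% of control, depending on the probe set. When each gene was represented by its brightest probe set, or by the mean of all its probe sets, HSPA5 passed, at 0.11 (limma adjusted p = 0.0391) and 0.12 (limma adjusted p = 0.00942).

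HSP90B1 encodes GRP94, the Hsp90 of the ER, which folds integrins and Toll-like receptors among other clients. Its brightest probe set read 13.79, 13.84 and 13.84 in USF1 knockdown and 13.72, 13.70 and 13.77 in USF1 controls, without overlap, and differed by 0.09 (SE 0.03, limma adjusted p = 0.0656). All 7 HSP90B1 probe sets were higher in USF1 knockdown, by 0.09 to 0.17. No overlap between the groups was seen on 6 of them, and on 51.2% of all tested probe sets. The 7 read 1 gene on the same arrays and are not independent. Of these 2 passed, 11753260_x_at at 0.17 (SE 0.04, limma adjusted p = 0.0111) and 11754608_x_at at 0.14 (SE 0.04, limma adjusted p = 0.0258). The second call did not hold without a dim limit (adjusted p = 0.0792), nor when USF1 control 1 or 2 or USF1 knockdown 1 or 2 was left out (adjusted p = 0.055 to 0.0828). The ending _x_at marks probe sets of which some probes can also match other sequences.

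DNAJB9, also called ERdj4, is a J-domain partner of BiP that directs misfolded proteins to degradation and represses IRE1. It had the largest change of the 10 genes. Probe set 11757735_s_at read 10.00, 10.08 and 9.93 in USF1 knockdown and 9.75, 9.66 and 9.75 in USF1 controls, and the lowest knockdown array lay above the highest control. DNAJB9 rose by 0.29 (SE 0.05, limma adjusted p = 0.00436), or to 122% of control. The second probe set, 11730731_s_at, read 7.11, 7.25 and 7.16 in USF1 knockdown, against 6.93, 6.88 and 6.93 in USF1 controls, and rose by 0.26 (SE 0.04, limma adjusted p = 0.00412). The remaining probe set, 11762694_x_at, averaged 4.27 in USF1 knockdown and 4.33 in USF1 controls, under the dim limit of 5.63, and was not tested. The mean of the 3 probe sets, which includes the dim one, gave 0.16 with a limma adjusted p of 0.0728.

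**Figure D3:**
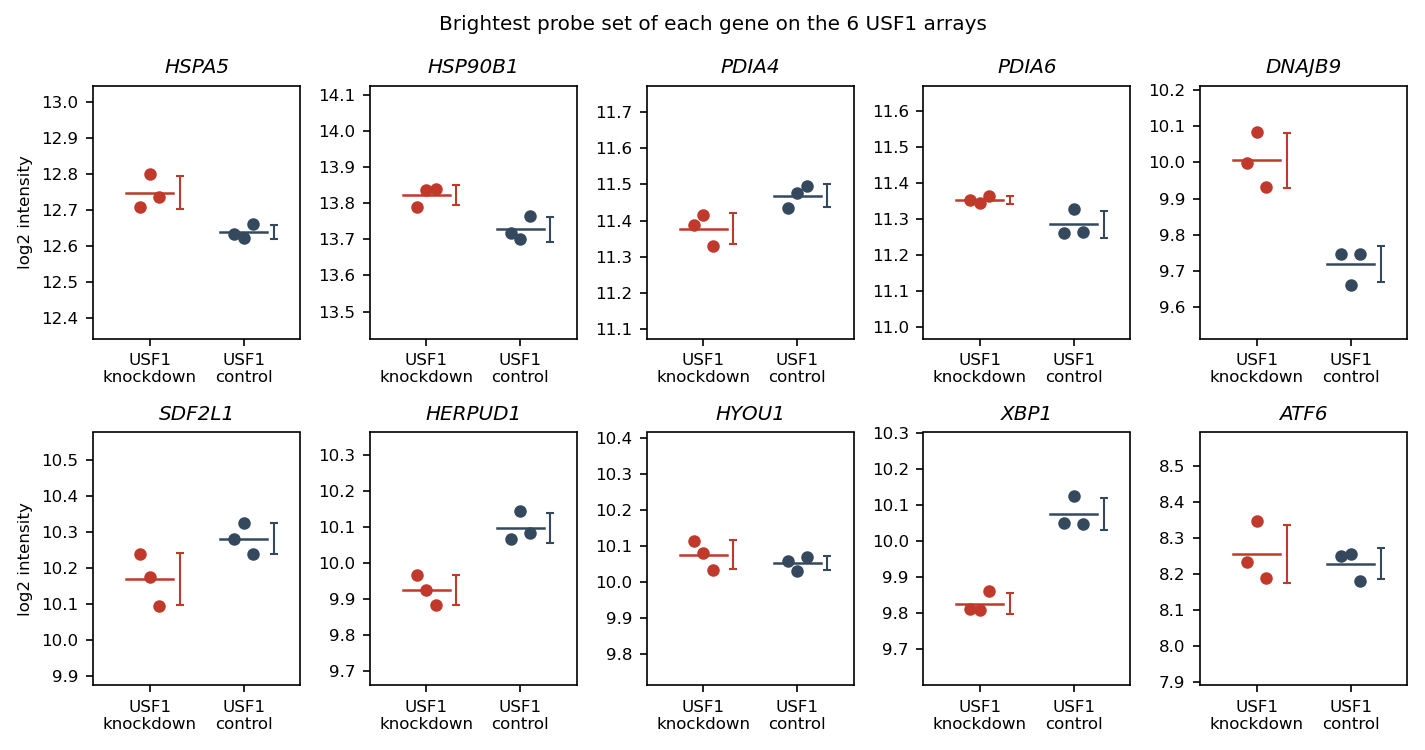
Log2 intensity of the brightest probe set of each gene on the 6 USF1 arrays, with knockdown left of control, points for arrays, lines for group means and bars for the SD (n = 3 each); every panel spans the same number of log2 units. The groups are separate for HSPA5, HSP90B1, PDIA4, PDIA6, DNAJB9, HERPUD1 and XBP1, and they overlap for SDF2L1, HYOU1 and ATF6. Over all tested probe sets, not only the brightest ones, 51.2% had separate groups. On the probe sets drawn, HSPA5, HSP90B1, PDIA4 and PDIA6 did not pass.

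The protein disulfide isomerases among the 10 genes, PDIA4 (ERp72) and PDIA6 (P5), form and rearrange disulfide bonds. PDIA4 read 11.39, 11.41 and 11.33 in USF1 knockdown and 11.43, 11.48 and 11.50 in USF1 controls on its brightest probe set, and differed by -0.09 (SE 0.04, limma adjusted p = 0.0906). Its 3 probe sets gave -0.09 to -0.04, and none passed. PDIA6 read 11.35, 11.34 and 11.36 in USF1 knockdown and 11.26, 11.33 and 11.26 in USF1 controls, a difference of 0.07 (SE 0.03, limma adjusted p = 0.149). Its 3 probe sets gave 0.05 to 0.07 and none passed. The 95% confidence intervals of both genes reached no further than -0.18 for PDIA4 and 0.15 for PDIA6, so larger changes than these lay outside the intervals.

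HYOU1, or GRP170, is a large ER chaperone that also acts as a nucleotide exchange factor for BiP. On its brightest probe set it read 10.12, 10.08 and 10.03 in USF1 knockdown and 10.06, 10.03 and 10.07 in USF1 controls, with overlapping groups and a difference of 0.02 (95% confidence interval -0.06 to 0.10). None of the 9 HYOU1 probe sets passed, and they ran from -0.06 to 0.08. SDF2L1, a partner of the ER J-domain proteins, had 1 probe set, which read 10.24, 10.18 and 10.09 in USF1 knockdown and 10.28, 10.33 and 10.24 in USF1 controls. The groups overlapped in a narrow range, and the difference of -0.11 (SE 0.05) did not pass (limma adjusted p = 0.102).

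HERPUD1, or Herp, is an ER membrane protein that brings misfolded proteins to the HRD1 ubiquitin ligase. Its brightest probe set, 11741510_a_at, read 9.97, 9.92 and 9.88 in USF1 knockdown and 10.07, 10.14 and 10.08 in USF1 controls, with every knockdown array below every control. HERPUD1 fell by 0.17 (SE 0.04, limma adjusted p = 0.0118), to 88.7% of control. The other tested probe sets, 11749257_a_at and 11715514_a_at, fell by 0.17 and 0.19 (limma adjusted p = 0.00703 and 0.00924), so all 3 gave nearly the same size. The remaining one, 11761596_x_at, averaged 3.16 in USF1 knockdown and 3.41 in USF1 controls, under the dim limit.

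XBP1, the transcription factor whose mRNA IRE1 splices, had 1 probe set. It read 9.81, 9.81 and 9.86 in USF1 knockdown and 10.05, 10.13 and 10.05 in USF1 controls, and the groups were well apart. XBP1 fell by 0.25 (SE 0.04, limma adjusted p = 0.00242), to 84.2% of control. For ATF6, the membrane-bound transcription factor, the probe sets disagreed. Probe set 11740461_a_at read 8.24, 8.30 and 8.22 in USF1 knockdown and 8.07, 8.04 and 8.10 in USF1 controls and rose by 0.18 (SE 0.04, limma adjusted p = 0.00839), whereas 11745173_a_at and 11745174_a_at overlapped between the groups and gave 0.03 and 0.06 (limma adjusted p = 0.697 and 0.604). Without USF1 knockdown 2 these 2 probe sets gave -0.02 and -0.03.

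A different prior changed how many of these small differences passed. With an intensity trend and a robust prior in limma, 17 of the 38 probe sets rose and 6 fell, on a background of 43.1% of all probe sets, 22.8% upward and 20.3% downward. All 7 HSP90B1 probe sets, 5 of 6 for HSPA5 and 2 of 3 for PDIA6 then rose, and PDIA4 (1 of 3) and SDF2L1 fell, while none of the 9 HYOU1 probe sets passed. The prior leaves the fitted differences as they are and alters only their tests.

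Set against the motifs, the genes with an ERSE or ERSE-II included both directions: HSPA5 and HSP90B1 rose on 3 of 6 and 2 of 7 probe sets, HERPUD1 and XBP1 fell on all tested probe sets, and PDIA6, SDF2L1 and HYOU1 did not pass. The genes with an E-box also included both, with rises of DNAJB9 and of 2 HSP90B1 probe sets and a fall of HERPUD1. The brightest HSPA5 probe set had its closest profiles over the 6 USF1 arrays, as the smallest root mean square difference after centring each gene on its own mean, in SPRY2 (0.0067 log2 units), ZFTA (0.0094) and IFT81 (0.010) among 11438 other genes. These were picked as the smallest of all distances, and they differed by 0.09 to 0.10 between USF1 knockdown and control. A relation to HSPA5 was not tested.

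Around these 10 genes, 89 further genes of ER protein folding and degradation were read in 6 lists, of which 87 had a probe set of their own and 85 were bright enough by their brightest one. By that probe set 22 rose, 19 fell and 44 did not pass, on a background of 38.7% of 11448 genes by the same rule, 20.9% upward and 17.8% downward. Over all their probe sets 60 of 238 rose and 46 fell, or 44.5% against the background of 37.3%, with a median of 0.01.

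Of the sensors and regulators of the unfolded protein response 3 of 18 genes rose and 7 fell, and by probe set 10 of 50 rose and 13 fell, with a median of -0.02. ATF4, the PERK branch transcription factor, fell by 0.29 (SE 0.03, limma adjusted p = 7.39e-04), and MBTPS1, the site-1 protease that cuts ATF6, fell by 0.31 (limma adjusted p = 0.00147). CREB3L2, a membrane-bound factor of the ATF6 kind, fell by 0.44 on its bright probe set (limma adjusted p = 2.29e-04), while its 3 dimmer tested ones gave -0.14 to 0.06 and did not pass. Its relatives CREB3 and CREB3L1 rose, by 0.31 (SE 0.03, limma adjusted p = 6.00e-04) and by 0.51 (SE 0.07, limma adjusted p = 0.00203). The PERK gene EIF2AK3 differed by -0.08 (limma adjusted p = 0.209), and the IRE1 gene ERN1 averaged 5.20 in USF1 knockdown and 5.16 in USF1 controls, under the dim limit.

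In the disulfide isomerase and oxidative folding list 5 of 16 genes rose and 3 fell. PDIA3, the isomerase of glycoproteins, averaged 11.38 in USF1 knockdown and 11.11 in USF1 controls and rose by 0.28 (SE 0.04, limma adjusted p = 0.00199), with its probe sets at 0.17 and 0.28. PDIA5 rose by 0.16 and ERP29 by 0.15, whereas the peroxiredoxin PRDX4 fell by 0.20 (limma adjusted p = 0.00703, 0.00827 and 0.00289 in turn). Of the 10 ER co-chaperones 4 rose and 1 fell. DNAJC1 rose by 0.26 (limma adjusted p = 0.00147), SDF2, the relative of SDF2L1, by 0.17 and the BiP exchange factor SIL1 by 0.16, and these last 2 calls did not hold in some fits with an array left out. The reductase DNAJC10 fell on all 5 tested probe sets, by 0.18 on the brightest and by up to 0.75 on the others, and the call of the brightest did not hold in some fits with an array left out or without a dim limit.

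In the calnexin cycle, which folds glycoproteins, 1 of 7 genes passed by its brightest probe set, and 7 of 25 probe sets rose. The gene was GANAB, the glucosidase II catalytic subunit, which rose by 0.20 on its brightest probe set (SE 0.04, limma adjusted p = 0.00515) and by up to 0.31 over its 5 probe sets. Calnexin itself, CANX, differed by 0.06 on its brightest probe set (limma adjusted p = 0.176), while 2 of its 9 rose, 11727426_a_at by 0.29 (limma adjusted p = 6.68e-04) and 11727423_a_at by 0.17 (limma adjusted p = 0.0184). In the degradation list 5 of 24 genes rose and 5 fell. EDEM2, which trims mannose from misfolded glycoproteins, fell by 0.63 (SE 0.04, limma adjusted p = 1.27e-04), the ubiquitin-conjugating enzyme UBE2G2 by 0.36 and the mannosidase MAN1B1 by 0.31 (by brightest probe set; their others gave -0.27 to -0.15 and -0.19 to -0.10), whereas SEL1L, the adaptor of the HRD1 ligase, rose by 0.22 (limma adjusted p = 0.00307). Among prolyl isomerases and other folding factors 4 of 10 rose and 3 fell. SERPINH1, the collagen chaperone HSP47, rose by 0.66 (SE 0.04, limma adjusted p = 7.94e-05) and FKBP2 by 0.38, and FKBP14 fell by 0.62. FKBP9 fell by 0.30 on its brightest probe set, but its 6 tested probe sets ran from -0.38 to -0.05 and 3 of them did not pass.

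**Figure D4:**
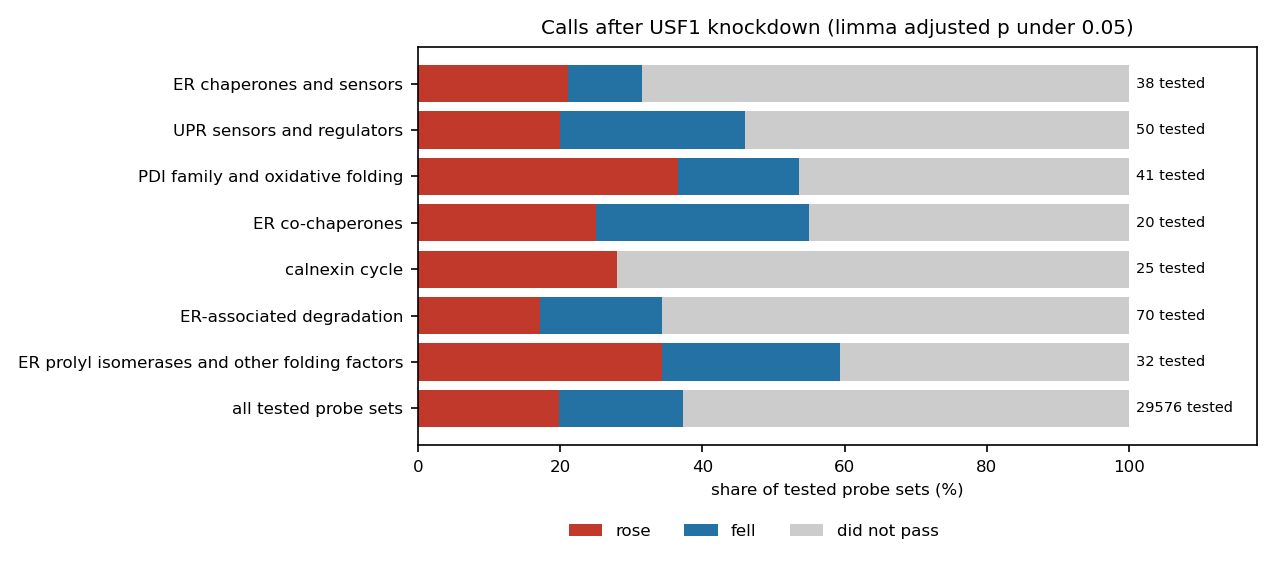
Share of tested probe sets (percent, horizontal axis) that rose, fell or did not pass after USF1 knockdown, for the 10 genes, each companion list and all probe sets, with the number tested at the right. Of the 38 probe sets of the 10 genes 8 rose and 4 fell, and 37.3% of all probe sets passed.

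In the UGT1A3 pair, with 1 array per group, differences have no replicate check and describe 2 arrays. DNAJB9 was again the largest difference by gene, at 8.15 in the UGT1A3 knockdown array and 7.77 in its control on 11757735_s_at, and at 6.18 in the knockdown array and 5.69 in its control on 11730731_s_at. These are differences of 0.38 and 0.49. HERPUD1 was higher in the UGT1A3 knockdown array on all 3 bright probe sets, by 0.19 to 0.27, with 8.94 in the knockdown array and 8.69 in the control on 11741510_a_at.

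SDF2L1 read 9.60 in the UGT1A3 knockdown array and 9.89 in its control, a difference of -0.29. All 7 HSP90B1 probe sets were lower in the UGT1A3 knockdown array, by 0.04 to 0.19 in size, and all 3 of PDIA4 differed by -0.25 to -0.08. HSPA5 was higher on 3 probe sets and lower on 3, with its brightest at 11.59 in the UGT1A3 knockdown array and 11.60 in its control. XBP1 read 8.93 in the knockdown array and 9.04 in its control, and the 3 ATF6 probe sets were higher by 0.07 to 0.25. PDIA6 ran from -0.14 to 0.03 and HYOU1 from -0.37 to 0.09.

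Past 0.32 log2 units in size lay 4 of the 38 bright probe sets, against 18.7% of all 29581 in this pair. The 2 higher ones were those of DNAJB9 (10.3% of all were higher) and the 2 lower ones were 11725931_at of HSPA5 (-0.33) and 11748625_x_at of HYOU1 (-0.37; 8.35% of all were lower). With 16 intensity units added before the logarithm, 2 of 38 lay past that size in all and 0 in the lower direction. The share over all probe sets is not given for that setting. The median difference was -0.05 over the 38 probe sets and 0.01 over all bright ones. The leukocyte and lysosomal marker CD68 read 8.18 in the UGT1A3 knockdown array and 7.71 in its control, while PTPRC read 2.63 in the knockdown array and 2.68 in the control, under the limit of 4.76, and the part of such cells in these differences was not tested.

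**Figure D5:**
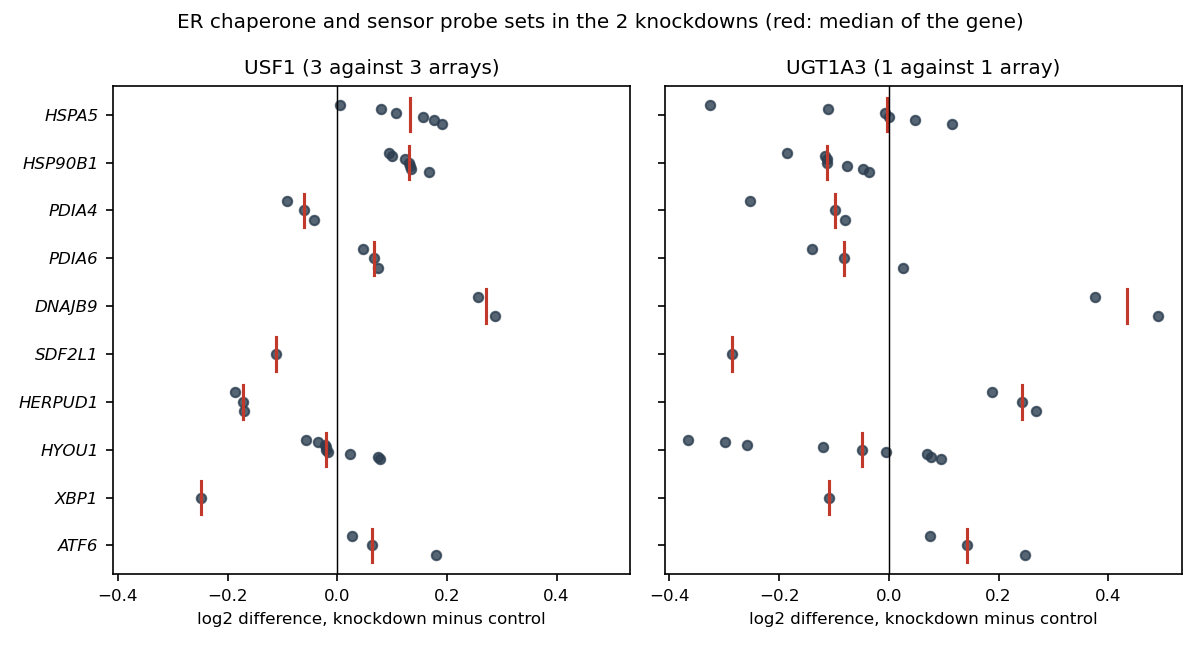
Log2 difference, knockdown minus control, of each bright probe set (points) with the median of the gene (red line), after USF1 knockdown (left, 3 against 3 arrays) and UGT1A3 knockdown (right, 1 against 1 array). DNAJB9 lies right of 0 in both panels, and HERPUD1 has a median of -0.17 on the left and 0.24 on the right.

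Side by side, with a control of its own for each knockdown, DNAJB9 had medians of 0.27 in USF1 knockdown and 0.43 in the UGT1A3 pair. XBP1 was at -0.25 and -0.11, and HERPUD1 at -0.17 and 0.24, in the same order. HSP90B1 had medians of 0.13 and -0.11. Whether the knockdowns differ was not tested, because the UGT1A3 pair has no replicates.

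Among the companion genes the UGT1A3 pair gave 12 of 233 probe sets higher by more than 0.32 log2 units and 33 lower by more, against 10.3% and 8.35% of all bright probe sets. UBE2J1, an ER ubiquitin-conjugating enzyme, differed by -1.08 on its brightest probe set and by -1.14 to -0.74 over 4. GANAB differed by -0.67 (-0.83 to -0.66 over 5) and the folding sensor UGGT1 by -0.47 (-0.47 to -0.18 over 3). The redox protein TMX1 differed by -0.55 (-0.65 to -0.55 over 3) and DERL3 by -0.52 (-0.54 to -0.10 over 4). DDIT3, which encodes CHOP, read 7.53 in the UGT1A3 knockdown array and 7.04 in its control, and on its brightest probe set it fell by 0.26 after USF1 knockdown (SE 0.05, limma adjusted p = 0.00527), while the other gave -0.24 and did not pass. PPIC, a prolyl isomerase, was higher by 0.41 and SERPINH1 by 0.32 in the UGT1A3 pair.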

How the data were processed

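RNA was measured on 8 arrays in 4 groups. The authors deposited log2 intensities, 1 value per probe set and array; their range gave the log base. The submitters' processing notes list MAS5 with no role or version, and how arrays were scaled to each other is not stated there. Symbols came from the platform annotation, updated by Entrez number. Of 49395 probe sets 102 were controls, and probe sets under the 40th percentile of means (5.63 in the USF1 arrays, 4.76 in the UGT1A3 arrays) were not tested. Each remaining probe set was fitted with limma 3.58.1 (lmFit, eBayes, R 4.3.3) on the 6 USF1 arrays without a block, with two-sided p-values and Benjamini-Hochberg adjustment over all of them. SE is the moderated standard error. The number of arrays limits the precision. The UGT1A3 pair gave differences without a test, counted past 0.32 log2 units. The fit was tried on simulated data, where it found 0 of 50 probe sets moved by 1.1-fold and 15 of 50 moved by 1.25-fold. It found 41 of 50 moved by 1.5-fold and 46 of 50 moved by 2-fold. Small changes can therefore have been missed among the probe sets that did not pass. Far fewer probe sets were moved there than passed in the data, so these rates need not carry over. The 10 genes, the lists and the tests were chosen with earlier results of these data known. Named companion genes are up to 4 per list with the smallest adjusted p by their brightest probe set, and in the UGT1A3 pair the 2 with the largest difference; some were left out of the text, and EIF2AK3, ERN1, CREB3L1 and CANX were added outside the rule, the last 2 after their values were seen. Motifs, as general consensus letters that no deposited file gives, were searched in RefSeq promoter windows (GRCh38.p14) with Python 3.11.15. The 15 alternatives were other scalings, dim limits, added units, gene summaries, priors, a replicate block and leaving out each USF1 array.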

Additional observations from a re-analysis of the deposited data

How the results depend on the processing

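XBP1, HERPUD1 and HYOU1 kept their direction and their side of the threshold under all 15 alternatives. Their differences ran from -0.27 to -0.22, from -0.20 to -0.15 and from 0.0002 to 0.04 in turn. DNAJB9 did so under 14, the exception being the mean of all its probe sets. Apart from that mean, the alternatives were read on the brightest probe set of a gene. The mean gave the -0.20 of HERPUD1 and the 0.0002 of HYOU1. HSPA5, at an adjusted p of 0.0505, passed under 7. USF1 kept its fall under each alternative that tested it, and it was not bright enough for the limit at the 60th percentile. Counted by gene, 4 of 10 passed (2 higher, 2 lower) both by brightest probe set and by mean, where all genes gave 4657 of 11448 (40.7%) and 4575 of 10346 (44.2%), and the companion genes 42 of 85 and 40 of 82, the smaller counts following from the number of features tested. DNAJB9 was among the higher genes only by brightest probe set. By intensity trend and robust prior 23 of 38 passed, 17 higher, on a background of 43.1%, from an unchanged number tested, and the cause was not tested. In the UGT1A3 pair the 4 probe sets past 0.32 log2 units became 2 (1 higher, 1 lower) with the limit at the 60th percentile, 2 (0 lower) with 16 units added, 1 (1 higher, 0 lower) by brightest probe set and 0 (0 higher, 0 lower) by mean. Leaving out 1 USF1 array left 10 to 12 calls among the 38. No share over all probe sets is given here for these fits or for the UGT1A3 recounts. The counts are therefore not read as particular to the 10 genes. Of values that passed in neither fit, 7 probe sets turned sign with some array left out. Over those fits ATF6 11745173_a_at ran from -0.018 to 0.061, ATF6 11745174_a_at from -0.026 to 0.16, HSPA5 11725931_at from -0.022 to 0.041, and HYOU1 11748624_a_at from -0.030 to 0.0033, 11749689_x_at from -0.043 to 0.0057, 11716005_a_at from -0.078 to 0.068 and 11752033_x_at from -0.069 to 0.026. Same-numbered USF1 arrays deviated together with correlations of -0.09, 0.17 and 0.08, so the numbers were not taken as pairs; with the replicate block 12 of the 38 passed, 8 higher and 4 lower, though HSP90B1 11754608_x_at did not (adjusted p = 0.0622), and 9999 of all probe sets against 11030.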
